A study of Mus musculus with 6 samples.

Results

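The replication-dependent histone genes are the 67 protein-coding genes of the GENCODE vM21 annotation (GRCm38) that belong to the clusters Hist1, Hist2, Hist3 and Hist4, and this account follows the histone acetylation at their promoters. A promoter peak of these genes was taken as an H3K27ac peak with the transcript start of at least 1 of them within 1 kb. Of 31131 peaks in the data, 57 met this rule, and they served 65 of the 67 genes. No peak lay within 1 kb of the linker histone genes Hist1h1d and Hist1h1t, whose nearest peaks were 1367 and 1918 bp from the start. Of the 57 peaks, 54 reached the background threshold of 0.5 RPKM in either condition and were tested, and 3 were below it.

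Chromatin immunoprecipitation sequencing of H3K27ac, acetylation of histone H3 at lysine 27, was performed in O4AID ESCs, mouse embryonic stem cells of strain 129SV derived from the ZHBTc4 line. Both conditions shared the genotype Oct4-/-, a TetOFF Oct4 transgene silenced by doxycycline, and CAG-driven transgenes for Oct4AID (OCT4 fused to an auxin-inducible degron) and Tir1, so the only OCT4 in the cells was the constitutively driven fusion protein. Cells were grown without serum in N2B27 medium with the inhibitors PD03 and Chiron and with LIF, and were left uninduced or given 500 μM IAA (indole-3-acetic acid, an auxin) for 1.5 h, which targets the fusion protein for degradation. There were 3 libraries per condition, each from its own immunoprecipitation (IP), and because neither the labels nor the methods say that the IPs came from separate cultures, p-values measure the spread between IPs. Promoter peaks above the threshold were present at 8 of 8 embryonic stem cell marker genes, at 0 of 4 trophectoderm markers, at 1 of 4 primitive endoderm markers (Gata6) and at 2 of 5 germ layer markers (Pax6 and Sox1).

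Replication-dependent histone genes encode the bulk of the core histones H2A, H2B, H3 and H4 and of linker histone H1, which package DNA into nucleosomes. They are transcribed mainly during S phase, when newly copied DNA needs new histones, and their mRNAs end in a stem-loop bound by SLBP in place of a poly(A) tail. Most have no introns, they sit together in a few clusters on both strands, and many H2A and H2B genes are arranged as divergent pairs around a shared promoter. NPAT acts on the whole family, OCT1 (gene Pou2f1) binds an octamer in H2B promoters, and H3K27ac marks active promoters and enhancers.

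The genes divide into 6 of class H1, 18 of H2A, 18 of H2B, 12 of H3 and 13 of H4. Hist1 on chromosome 13 holds 54 of them with 46 promoter peaks, Hist2 on chromosome 3 holds 10 with 8 peaks, Hist3 on chromosome 11 holds 2 with 2 peaks, and Hist4 on chromosome 6 is the single gene Hist4h4 with 1 peak. In the annotation 61 of the genes have a single exon. A peak served 1 gene in 33 cases, 2 genes in 18 and 3 genes in 6. There were 13 divergent pairs with starts under 1 kb apart, and 12 of these paired an H2A with an H2B gene, with starts 176 to 306 bp apart. Because genes in such a pair share a peak, their values are 1 measurement and not 2.

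Promoter sequences were taken from RefSeq (GRCm38.p6), which gave a window for 61 of the 67 genes, from 250 bases before to 50 after the RefSeq start. That start was the same base as the GENCODE start, from which peak positions are counted here, in 17 of the 61 and lay up to 98 bp from it in the others. The first set below shows the 120 bases that precede the start in genes holding the octamer ATGCAAAT or its complement ATTTGCAT. Capitals mark that octamer, the motif TATAAA, and a sequence 1 base away from the octamer, ATTCAAAT or ATTTGAAT.
Hist1h2bb (chr13:23746614-23746733, + strand): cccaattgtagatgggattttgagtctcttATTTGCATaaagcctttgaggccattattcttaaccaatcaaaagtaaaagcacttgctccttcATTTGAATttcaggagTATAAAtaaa
Hist1h2bg (chr13:23571280-23571399, + strand): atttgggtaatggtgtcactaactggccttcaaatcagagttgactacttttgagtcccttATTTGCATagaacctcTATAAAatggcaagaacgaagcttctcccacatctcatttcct
Hist1h2bk (chr13:22035701-22035820, + strand): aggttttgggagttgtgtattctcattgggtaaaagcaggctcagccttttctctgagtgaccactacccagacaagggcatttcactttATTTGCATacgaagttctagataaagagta
Hist1h2bm (chr13:21721924-21722043, + strand): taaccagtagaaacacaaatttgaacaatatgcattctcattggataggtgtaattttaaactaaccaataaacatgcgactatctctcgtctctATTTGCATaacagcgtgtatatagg
Hist2h2bb (chr3:96269580-96269699, + strand): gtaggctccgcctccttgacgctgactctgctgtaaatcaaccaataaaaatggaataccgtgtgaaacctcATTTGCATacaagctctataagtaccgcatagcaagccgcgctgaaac
Hist3h2a (chr11:58954565-58954684, + strand): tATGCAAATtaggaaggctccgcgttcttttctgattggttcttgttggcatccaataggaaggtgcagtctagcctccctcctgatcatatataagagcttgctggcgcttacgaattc

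The octamer was present on either strand in 13 of the 61 windows (21.3%), against 570 of 32851 windows of all genes (1.74%). Those 13 were 7 of 18 H2A and 6 of 16 H2B windows, with 0 in the windows of H1, H3 and H4. Since paired genes see the same bases from opposite sides, the 13 windows hold 10 distinct octamers. In H2B genes the octamer began 164 bases before the RefSeq start in Hist1h2ba, 90 in Hist1h2bb, 59 in Hist1h2bg, 48 in Hist2h2bb, 30 in Hist1h2bk and 25 in Hist1h2bm. Counted from the GENCODE start it began 55 bases before in Hist1h2bg, 100 in Hist2h2bb and 79 in Hist1h2bk, with the same distance in the other 3. The sequence 1 base away was looked for after the windows had been read, and stood in 8 of 16 H2B and 6 of 18 H2A windows against 1.25% of all windows, so that 13 of 16 H2B windows held one or the other. CCAAT, the motif bound by NF-Y, was found on either strand in 52 of 61 windows (85.2%) against 37.4% of all windows, in every H1, H2A, H2B and H3 window but in 3 of 12 H4 windows. TATAAA was found on either strand and anywhere in the window in 34 of 61 (55.7%) against 13.6%. Its matches began from 250 bases before the RefSeq start (Hist1h4f) to 41 after it (Hist1h4a). A match of letters is a description and not a binding site. Of the 10 octamers, 4 lay inside a promoter peak and the other 6 outside it.

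The transcript start lay inside a peak in 45 genes and between peaks on either side in 16. In 3 genes (Hist1h1a, Hist1h1b and Hist1h2ba) the peak was downstream only and in 1 (Hist1h2aa) upstream only. Class H4 had its start inside a peak in 12 of 13 genes and H2A in 15 of 18, against 10 of 18 for H2B, 6 of 12 for H3 and 2 of 6 for H1. Because most of these genes are short and without introns, 54 of the 57 peaks overlapped coding sequence, and the median peak had 69.6% of its bases in annotated histone exons. The map of peaks around the starts shows the paired arrangement, with gaps over the starts of Hist1h2bb, Hist1h2bm, Hist1h3c and Hist2h3c1.

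**Figure D1:**
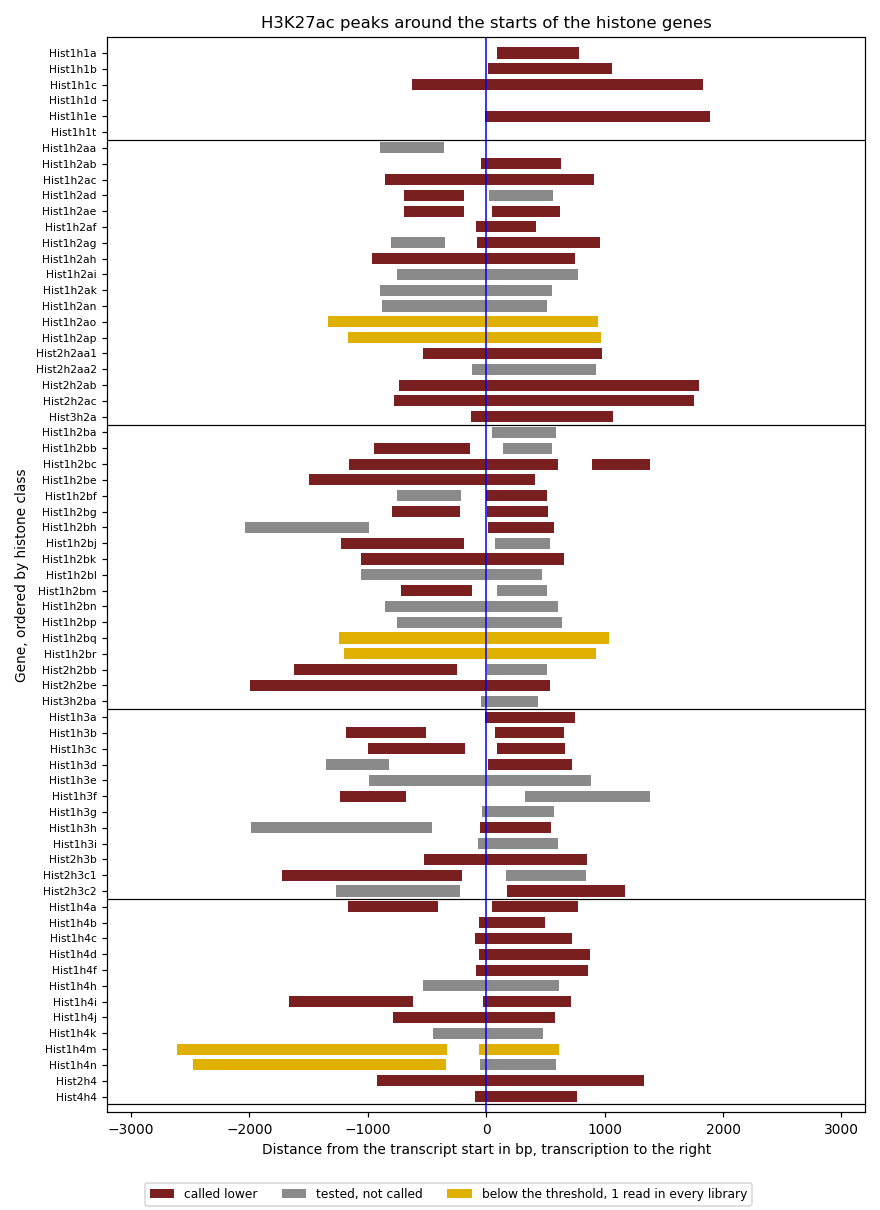
H3K27ac peaks around the transcript starts of the 67 histone genes, in bp from the start with transcription to the right (blue line, start). Bars are peaks, dark red where called lower after IAA, grey where tested and not called, and yellow for the 3 peaks at 1 read in every library; Hist1h1d and Hist1h1t have no bar.

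Values are given as RPKM, reads scaled to peak length in kilobases and to library size, per library in the order of replicates 1, 2 and 3. The libraries held 31634480 to 39547452 reads, and the median histone peak above the threshold had 82 to 111.5 reads in the uninduced and 51.5 to 74 reads in the IAA libraries, a counting error of 9.47% to 13.9%. Changes are on the log2(RPKM + 0.1) scale, IAA minus uninduced, with the standard error (SE) of limma, and a peak was called at a Benjamini-Hochberg (BH) adjusted p under 0.05 over all 26457 peaks tested. In these bulk libraries, fewer cells carrying the mark and less of the mark per cell cannot be told apart.

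On the deposited scale H3K27ac was lower after IAA at 35 of the 54 histone promoter peaks and higher at 0 (limma, BH), and after centring each library on its median peak it was lower at 0. Without uninduced replicate 1 the count of lower peaks was 11 (20.4%, against 39.2% of all peaks), and without uninduced replicate 2 it was 21 (38.9%, against 46.5% of all peaks). The share of all 26457 peaks called lower was 68.2%, against 64.8% of the histone peaks and 71.2% (8381 of 11769) of the promoter peaks of other protein-coding genes. At an unadjusted p under 0.05, 41 of the 54 were lower and 0 higher. Every one of the 54 had a negative change, from -0.75 to -0.06 with a median of -0.46, and over all peaks the median was -0.55 and over other coding promoter peaks -0.53. Because the peaks were defined on the uninduced IPs alone, regions marked only after IAA could not enter these counts. Such a choice favours falls over rises. In 42 of the 54 peaks all IAA values were below all uninduced values, a pattern seen in 71.2% of all peaks tested. A called peak was present at 44 of the 60 genes that have a tested peak.

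The share of reads within peaks moved with the condition, from 6.63% to 7.12% of reads in the uninduced libraries to 4.05% to 5.15% after IAA, and RPKM divides by all reads. After centring, the median change over the histone peaks was 0.10, with class medians from 0.07 (H1) to 0.12 (H3), and 0 of the 54 peaks were called in either direction (limma, BH; at an unadjusted p under 0.05, 0 lower and 3 higher). Histone promoter peaks took 0.279%, 0.262% and 0.277% of the reads in peaks in the uninduced libraries and 0.292%, 0.306% and 0.285% after IAA. Each IAA library was above each uninduced one in this share, with means of 0.294% ± 0.0110 and 0.273% ± 0.00917 (SD, n = 3 each). The share was not taken for other sets of peaks. Other coding promoter peaks also had a positive median change after centring, 0.03.

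The plot of medians per library shows the histone peaks above other coding promoter peaks in all 6 libraries. Uninduced libraries had a histone median of 1.86, 1.75 and 1.72 on the log2(RPKM + 0.1) scale and IAA libraries of 1.50, 1.39 and 1.10, or 1.78 ± 0.0745 and 1.33 ± 0.207 (SD, n = 3 each). The corresponding medians of other coding promoter peaks were 1.58 ± 0.0747 and 1.05 ± 0.176 (SD, n = 3 each). Within each library the histone median exceeded the other by 0.24, 0.12 and 0.22 before and by 0.27, 0.36 and 0.21 after IAA. The mean difference was 0.09 larger after IAA, and the values of the conditions overlapped.

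**Figure D2:**
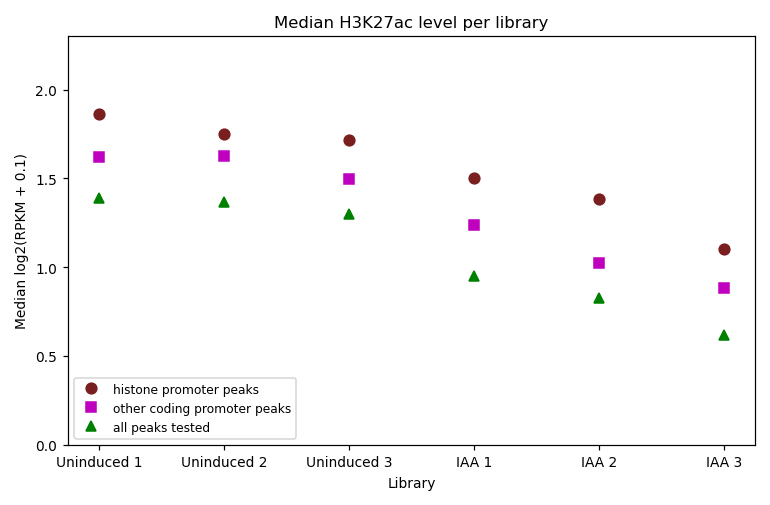
Median log2(RPKM + 0.1) per library over the 54 histone promoter peaks (circles), 11769 other coding promoter peaks (squares) and all 26457 peaks tested (triangles). On the deposited scale all 3 medians were lower in the IAA libraries than in any uninduced library, and the histone median was the highest in each library.

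**Figure D3:**
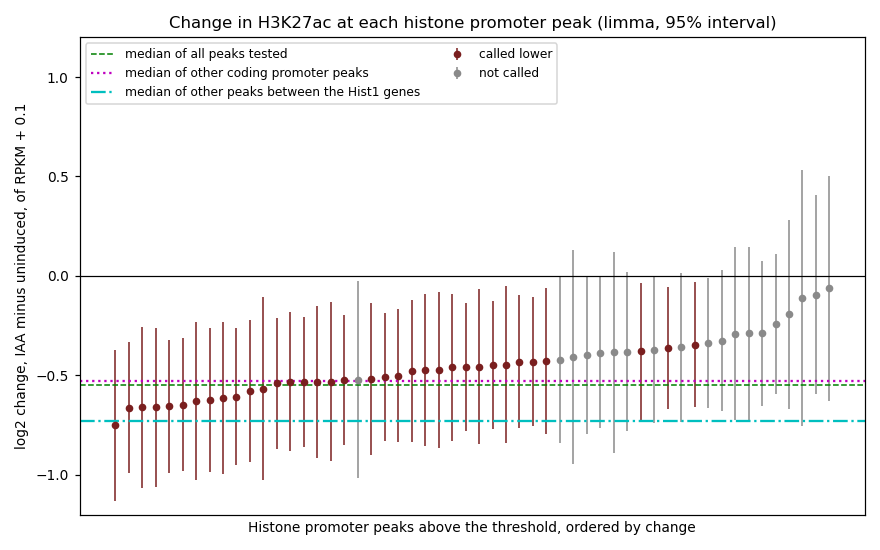
Log2 change of RPKM + 0.1 at each of the 54 histone promoter peaks, ordered by size, with 95% intervals from limma (dark red, called lower; grey, not called). Dashed and dotted lines give the medians of all peaks (-0.55) and other coding promoter peaks (-0.53). The dash-dotted line gives that of other peaks between the first and last Hist1 promoter peak (-0.73). Every point lies below 0 (after centring each library on its median peak, 12 of the 54 do).

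The changes and counts given by class are on the deposited scale, on which 68.2% of all peaks tested were called lower. Linker histone genes, whose products bind the DNA that enters and leaves the nucleosome, had 4 peaks, and all 4 were called lower with a median change of -0.49. Hist1h1c had the highest H1 peak at chr13:23738185-23740641, with 5.89, 5.23 and 5.04 RPKM in the uninduced and 4.44, 3.70 and 3.56 RPKM in the IAA libraries. The conditions did not overlap, and the change was -0.46 ± 0.15, limma adjusted p = 0.0168. The Hist1h1a peak at chr13:23763754-23764453, downstream of the start, had 5.14, 4.43 and 3.77 RPKM in the uninduced and 3.48, 2.54 and 2.56 RPKM in the IAA libraries. It was the largest fall of the class, -0.62 ± 0.17, limma adjusted p = 0.00686, with each IAA value below each uninduced value. At Hist1h1b, chr13:21779565-21780606, the libraries gave 5.25, 4.55 and 4.42 RPKM in the uninduced and 3.72, 3.78 and 3.60 RPKM in the IAA libraries. This smallest fall of the class, -0.35 ± 0.15, limma adjusted p = 0.0489, was just under the threshold of 0.05, and the IAA values lay close together and below the others. A single peak at chr13:23620665-23622571 covered the starts of Hist1h1e and of its neighbour Hist1h2be, with 2.32, 2.26 and 2.14 RPKM in the uninduced and 1.71, 1.45 and 1.45 RPKM in the IAA libraries, again without overlap and with a change of -0.52 ± 0.18, limma adjusted p = 0.0206.

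H2A genes had 20 peaks, of which 18 were tested and 11 called lower, with a median change of -0.45. The highest, at chr3:96219125-96221658, spans the starts of Hist2h2ab, Hist2h2ac and Hist2h2be and had 4.79, 4.61 and 4.66 RPKM in the uninduced and 3.33, 3.62 and 2.69 RPKM in the IAA libraries. The uninduced values lay close together and all exceeded the IAA values (-0.54 ± 0.16, limma adjusted p = 0.00895). Hist1h2af, at chr13:23533823-23534327, had the largest fall of the class, with 3.51, 3.70 and 3.48 RPKM in the uninduced and 2.21, 2.14 and 2.29 RPKM in the IAA libraries. The libraries of each condition were close together there, and the change was -0.66 ± 0.16, limma adjusted p = 0.00303. Hist3h2a in the small Hist3 cluster, at chr11:58954556-58955757, gave 4.53, 4.26 and 4.84 RPKM in the uninduced and 3.49, 3.16 and 2.71 RPKM in the IAA libraries, also without overlap (-0.53 ± 0.16, limma adjusted p = 0.00932). The peak of Hist1h2aa and Hist1h2ba, at chr13:23933563-23934109, was the lowest of all tested histone peaks, and these genes are known for expression in testis. It had 0.695, 0.868 and 0.615 RPKM in the uninduced and 0.698, 1.07 and 0.370 RPKM in the IAA libraries, and the third IAA library was the lowest and the second the highest of the 6. The change was -0.11 ± 0.31, limma adjusted p = 0.740, with a 95% interval from -0.76 to 0.53.

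H2A and H2B genes of a divergent pair shared 15 peaks, of which 13 were tested and 7 called lower, with a median change of -0.43. The peak over the starts of Hist1h2ak and Hist1h2bn, chr13:21753269-21754728, had 2.50, 2.34 and 2.90 RPKM in the uninduced and 2.03, 2.34 and 1.50 RPKM in the IAA libraries. The second IAA library was just under the second uninduced library, and the peak was not called (-0.40 ± 0.19, limma adjusted p = 0.0672). At Hist1h2an and Hist1h2bp, chr13:21786704-21788097, the values were 2.40, 2.07 and 2.21 RPKM in the uninduced and 1.81, 1.75 and 1.57 RPKM in the IAA libraries, lower in each IAA library but not past the threshold (-0.36 ± 0.18, limma adjusted p = 0.0787). The peak over the body of Hist1h2bj, paired with Hist1h2ag, chr13:22043290-22043749, had 1.98, 1.31 and 2.08 RPKM in the uninduced and 1.47, 1.81 and 0.817 RPKM in the IAA libraries, and the conditions overlapped (-0.41 ± 0.26, limma adjusted p = 0.153). Hist2h2aa2 shared chr3:96239346-96240399 with Hist2h3c2, at 1.49, 1.17 and 1.28 RPKM in the uninduced and 1.28, 1.05 and 0.685 RPKM in the IAA libraries, where the first IAA library exceeded 2 of the uninduced ones (-0.38 ± 0.24, limma adjusted p = 0.152).

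H2B genes had 26 peaks, of which 24 were tested and 13 called lower, with a median change of -0.44. The highest H2B and H3 peak was the same one, at chr13:23745783-23746599 in the interval between the divergent genes Hist1h3c and Hist1h2bb, and it held no annotated histone exon. It gave 8.55, 6.90 and 7.53 RPKM in the uninduced and 5.999, 6.35 and 4.70 RPKM in the IAA libraries, without overlap (-0.43 ± 0.16, limma adjusted p = 0.0230). The Hist1h2bb promoter printed above, with its octamer, lies in the gap that follows this peak. On the far side of the gap, over the gene body of Hist1h2bb, the peak at chr13:23746873-23747289 had 5.29, 3.80 and 3.04 RPKM in the uninduced and 3.59, 3.33 and 1.66 RPKM in the IAA libraries, a wider spread with overlapping conditions and no call (-0.52 ± 0.24, limma adjusted p = 0.0569). The largest fall of the class was at chr13:23542821-23543375, over Hist1h2bh and upstream of Hist1h3f, with 2.19, 2.23 and 2.47 RPKM in the uninduced and 1.64, 1.50 and 1.15 RPKM in the IAA libraries (-0.66 ± 0.19, limma adjusted p = 0.00903). The smallest change was at Hist3h2ba, chr11:58948878-58949360, with 1.26, 2.03 and 0.911 RPKM in the uninduced and 1.64, 1.38 and 0.898 RPKM in the IAA libraries. There the uninduced libraries spanned the IAA libraries almost entirely (-0.06 ± 0.27, limma adjusted p = 0.830; 95% interval -0.63 to 0.50), while its Hist3 neighbour Hist3h2a was called lower.

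Other H2B peaks that were not called overlapped coding sequence. Hist1h2bm, whose octamer begins 25 bases before the start, had 1.69, 1.51 and 1.24 RPKM in the uninduced and 1.33, 1.59 and 0.966 RPKM in the IAA libraries at chr13:21722136-21722554, with the second IAA library above 2 of the uninduced ones (-0.19 ± 0.23, limma adjusted p = 0.428). The peak on the other side of its start, at chr13:21721326-21721922, was called lower (-0.63 ± 0.19, limma adjusted p = 0.0103). The test of the difference between such flanking peaks was not made. Hist2h2bb, at chr3:96269756-96270265, had 4.42, 3.66 and 3.86 RPKM in the uninduced and 3.17, 3.81 and 2.27 RPKM in the IAA libraries, and the second IAA library overlapped the uninduced values (-0.38 ± 0.18, limma adjusted p = 0.0643). A peak over Hist1h2bl, Hist1h2ai and near Hist1h3h, chr13:21715672-21717198, gave 3.13, 3.19 and 3.15 RPKM in the uninduced and 2.96, 2.49 and 1.91 RPKM in the IAA libraries. The uninduced values were nearly equal there, the IAA values were spread widely below them, and the change was -0.37 ± 0.18, limma adjusted p = 0.0646. At chr13:23574407-23574946, near Hist1h2bf, Hist1h2ad and Hist1h3d, the libraries had 2.67, 2.52 and 2.59 RPKM in the uninduced and 2.94, 1.44 and 2.19 RPKM in the IAA libraries, and the first IAA library was the highest of all 6 (-0.29 ± 0.21, limma adjusted p = 0.206).

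H3 genes had 19 peaks, all of them tested, of which 11 were called lower with a median change of -0.43. Hist1h3h, at chr13:21717608-21718206, showed the largest fall of any histone peak, with 3.38, 2.48 and 2.81 RPKM in the uninduced and 1.57, 1.90 and 1.54 RPKM in the IAA libraries. The highest IAA value was below the lowest uninduced value, and the change was -0.75 ± 0.18, limma adjusted p = 0.00344. The smallest change of the class was that of Hist1h3g, chr13:23535385-23535997, with 4.297, 4.39 and 4.77 RPKM in the uninduced and 4.41, 4.17 and 2.92 RPKM in the IAA libraries. Its first and second IAA libraries lay among or near the uninduced ones and the third lay far below (-0.24 ± 0.17, limma adjusted p = 0.190). Hist1h3i, at chr13:21782768-21783443, had 3.03, 2.29 and 2.49 RPKM in the uninduced and 2.13, 2.22 and 1.97 RPKM in the IAA libraries, lower in each IAA library by a margin smaller than the spread of the uninduced ones (-0.29 ± 0.17, limma adjusted p = 0.137). The Hist1h3e peak at chr13:23561483-23563356 had 3.43, 2.90 and 3.13 RPKM in the uninduced and 2.55, 2.87 and 2.11 RPKM in the IAA libraries, with a similar narrow separation (-0.33 ± 0.17, limma adjusted p = 0.0884). The peak at chr13:23544381-23545433, over Hist1h3f and upstream of Hist1h2bh, had 2.09, 1.98 and 1.64 RPKM in the uninduced and 1.84, 1.66 and 1.18 RPKM in the IAA libraries with overlap (-0.29 ± 0.21, limma adjusted p = 0.203). Hist2h3c1, at chr3:96246855-96247526, gave 1.92, 1.60 and 1.96 RPKM in the uninduced and 1.27, 1.32 and 1.42 RPKM in the IAA libraries, without overlap and without a call (-0.42 ± 0.20, limma adjusted p = 0.0642).

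H4 genes, with 17 peaks of which 14 were tested, had 11 called lower and a median change of -0.45. The highest H3K27ac of any histone promoter was at Hist4h4 on chromosome 6, chr6:136803650-136804512, with 9.91, 9.90 and 9.23 RPKM in the uninduced and 8.54, 7.88 and 6.29 RPKM in the IAA libraries. The conditions did not overlap, and the change of -0.36 ± 0.15, limma adjusted p = 0.0359 was smaller than the median of the histone peaks. The 120 bases before the start of Hist4h4 (chr6:136804432-136804551, - strand), shown because this promoter carries the highest level, hold neither the octamer nor TATAAA:
Hist4h4: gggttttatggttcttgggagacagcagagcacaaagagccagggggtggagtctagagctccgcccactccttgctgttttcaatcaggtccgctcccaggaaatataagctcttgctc

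Among the other H4 genes, the largest fall was at Hist1h4a, chr13:23760457-23761178, with 4.91, 4.74 and 5.59 RPKM in the uninduced and 3.66, 3.69 and 2.64 RPKM in the IAA libraries and a clear separation (-0.61 ± 0.17, limma adjusted p = 0.00630). Hist1h4h, at chr13:23530513-23531667, had 5.30, 4.79 and 5.30 RPKM in the uninduced and 4.57, 4.20 and 3.43 RPKM in the IAA libraries, lower in each IAA library and just above the threshold (-0.34 ± 0.16, limma adjusted p = 0.0606). Hist1h4k, at chr13:21750026-21750955, had 2.29, 2.31 and 2.22 RPKM in the uninduced and 2.21, 1.49 and 1.55 RPKM in the IAA libraries, with the first IAA library just under the lowest uninduced one (-0.38 ± 0.19, limma adjusted p = 0.0789). Hist1h4n, at chr13:21831608-21832249, had the lowest tested H4 peak, with 1.03, 1.04 and 0.806 RPKM in the uninduced and 0.732, 0.994 and 0.945 RPKM in the IAA libraries. Its conditions overlapped and the change was -0.09 ± 0.24, limma adjusted p = 0.714, with a 95% interval from -0.59 to 0.40.

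**Figure D4:**
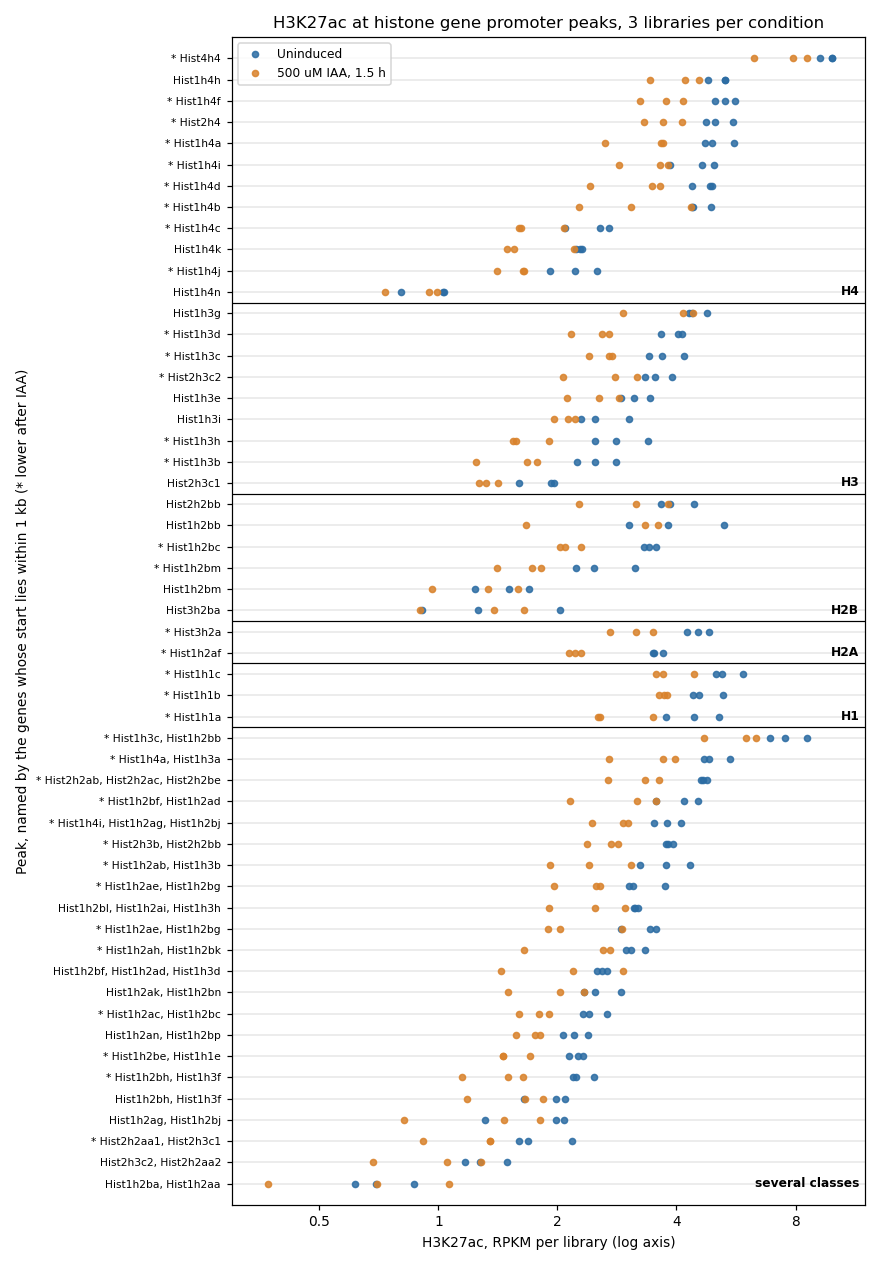
H3K27ac in RPKM (log axis) at the 54 histone promoter peaks above the threshold in 3 uninduced (blue) and 3 IAA (orange) libraries, grouped by histone class and, at the bottom, peaks that serve several classes; an asterisk marks the 35 peaks called lower. Hist4h4 is the highest and the peak of Hist1h2ba and Hist1h2aa the lowest, and the colours overlap in 12 peaks.

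Medians by class ran from -0.49 (H1) to -0.43 (H3), and those by cluster were -0.46 over the 43 tested peaks of Hist1 and -0.44 over the 8 of Hist2. Of the peaks that serve 1 gene 21 of 32 (65.6%) were called lower, with a median of -0.46, and of those that serve 2 or more 14 of 22 (63.6%), with a median of -0.45. Both shares stand beside 68.2% of all peaks tested. Called peaks were deeper than those not called, with a median of 107 against 57.3 reads per library and of 814 against 671 bases, and their median changes were -0.52 and -0.34. Of the 19 peaks that were not called, 8 had every IAA value below every uninduced value, and of the 35 called peaks 34 did. The part that depth played in the calls was not tested.

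The deposited table carries a mark for proximity (1 kb or less) to an OCT4 site known from published ChIP-seq. The mark was set at 11 histone promoter peaks, of which 10 were tested and 4 called lower, with a median change of -0.41. Without the mark, 31 of 44 were called lower (70.5%), with a median of -0.46. Among the promoter peaks of other coding genes, 810 of 940 with the mark were called lower (86.2%), with a median of -0.65, and 7571 of 10829 without it (69.9%), with a median of -0.52. The marked histone peaks included those of Hist1h2bb, Hist2h2bb and Hist1h4d, and the difference from the other promoters was not tested. Histone promoter peaks that hold an octamer anywhere in their sequence were called lower in 7 of 7 cases, against 28 of 47 without one. Of all peaks tested, 68.2% were called lower. The median changes with and without an octamer were close, -0.47 and -0.45, and after centring 0 peaks of either set were called lower. Peaks with an octamer were longer (median 1371 against 705 bases) and held less sequence that recurs in the genome (median 16.6% against 47.5%). The part that the octamer, length or repeats played in the calls was not tested. The 7 peaks with an octamer include those of Hist3h2a, Hist4h4 and the Hist2h2ab, Hist2h2ac and Hist2h2be promoter described above.

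Other peaks between the first and the last histone promoter peak on chromosome 13 numbered 62, of which 52 were tested and 43 called lower (82.7%, against 68.2% of all peaks tested). Their median change was -0.73, against -0.46 for the 43 tested Hist1 promoter peaks. After centring, 4 of the 52 were called lower, against 1.97% of all peaks, with a median of -0.18. For the Hist1 promoter peaks these values were 0 and 0.09. These peaks lie within the span of the Hist1 genes but near the start of none of them. That span includes a stretch that holds none of the 67 genes, between the starts of Hist1h2bj (22043214) and Hist1h4h (23531050). The mark of an OCT4 site was set at 19 of the 62 (30.6%), against 16.3% of all peaks. The difference between the 62 peaks and the Hist1 promoter peaks was not tested.

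Many histone genes of a class are near copies of each other, so most of their promoter peaks hold sequence that occurs elsewhere in the genome. On average 41.5% of the 32-base words in the tested histone peaks recur on the main chromosomes of GRCm38. The average was 2.64% in other coding promoter peaks and 7.54% over all peaks tested. By class, the average share of recurring words was 4.97% (H1), 50.4% (H2A), 43.9% (H2B), 54.7% (H3) and 31.2% (H4), and the Hist4 peak had 0%. A read made of such words cannot be assigned to a single gene, so that the level of a peak with many of them is uncertain. Among peaks with at most 10% of repeated words 7 of 8 were called lower with a median change of -0.45, among those with over 10% to 50% it was 18 of 25 with -0.46, and among those with over 50% 10 of 21 with -0.47. These counts stand beside 68.2% of all peaks tested, and after centring 0 peaks of any of these sets were called. The part that repeats played in the calls was not tested. The plot of repeated words against reads shows that the peaks with most repeats had few reads.

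**Figure D5:**
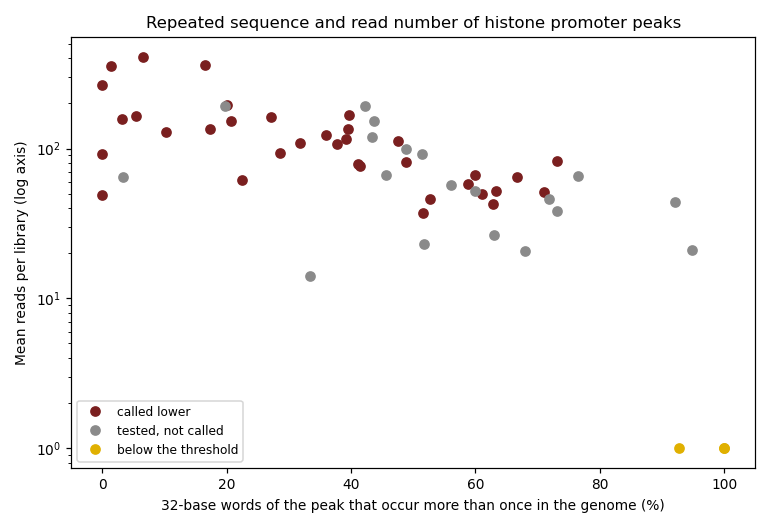
Mean reads per library (log axis) of the 57 histone promoter peaks against the percentage of their 32-base words that occur more than once in the genome. The 3 peaks below the threshold (yellow) have 92.7% to 100% repeated words and 1 read in every library, and the tested peaks (dark red, called lower; grey, not called) reach from 0% to 94.9%.

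The smallest value times peak length in each library was taken as 1 read. No value lay below it, so that a peak with 0 reads and one with 1 cannot be told apart. At 3 histone promoter peaks, all on chromosome 13, every one of the 6 libraries was at this floor. They are chr13:21809132-21811411 over Hist1h2bq, Hist1h2ao and upstream of Hist1h4m, chr13:21811681-21812360 over Hist1h4m, and chr13:21832539-21834671 over Hist1h2ap, Hist1h2br and upstream of Hist1h4n. At 1 read the RPKM of the first was 0.0111, 0.0139 and 0.0113 RPKM in the uninduced and 0.0129, 0.0122 and 0.0127 RPKM in the IAA libraries, which differs between libraries only through their size. The floor was reached in all libraries by 3 of 57 histone promoter peaks (5.26%), 90 of 11965 other coding promoter peaks (0.752%) and 1837 of 31131 peaks (5.90%). No direction can be given for these 3, and the genes Hist1h2bq, Hist1h2ao, Hist1h4m, Hist1h2ap and Hist1h2br have no other peak within 1 kb.

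These peaks belong to a duplicated stretch of the Hist1 cluster. The share of their 32-base words that recur in the genome was 100%, 92.7% and 100%, and 93.5%, 85.4% and 100% of their words stood in 1 other histone promoter peak. The 120 bases before the start were the same at all positions in Hist1h2bq and Hist1h2br, and 119 in a row were shared by Hist1h4m and Hist1h4n. They are shown to make the copies visible, with capitals as above:
Hist1h2bq (chr13:21810200-21810319, - strand): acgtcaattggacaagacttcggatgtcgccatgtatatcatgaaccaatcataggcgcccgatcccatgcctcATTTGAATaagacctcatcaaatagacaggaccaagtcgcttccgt
Hist1h2br (chr13:21833623-21833742, + strand): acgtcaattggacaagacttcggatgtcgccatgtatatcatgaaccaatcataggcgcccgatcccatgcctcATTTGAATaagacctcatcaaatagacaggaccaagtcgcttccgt
Hist1h4m (chr13:21811626-21811745, + strand): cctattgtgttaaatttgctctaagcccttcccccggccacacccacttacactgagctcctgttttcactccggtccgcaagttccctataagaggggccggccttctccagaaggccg
Hist1h4n (chr13:21832198-21832317, - strand): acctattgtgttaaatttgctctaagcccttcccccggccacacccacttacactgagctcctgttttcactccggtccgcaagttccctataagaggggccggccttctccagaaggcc

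Of the 4 peaks in this duplication only that over the body of Hist1h4n was above the floor, at 0.73 to 1.04 RPKM as given above and with 94.9% repeated words. A second set of near copies lies in Hist2, formed by Hist2h3c2 with Hist2h2aa2 and by Hist2h3c1 with Hist2h2aa1. The peaks over the H2A starts there had 92.2% and 73.1% repeated words, and both were above the threshold. The one at Hist2h2aa1 was called lower (-0.57 ± 0.22, limma adjusted p = 0.0312) and the one at Hist2h2aa2 was not. The difference between them was not tested, and reads may be shared between the copies.

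Genes that act with the histone genes also had lower H3K27ac at most of their promoter peaks on the deposited scale, and at 0 of them after centring on the median peak. Histone variants listed as replication-independent had 16 tested peaks at 11 of 12 genes, and 13 were called lower with a median change of -0.56. Without uninduced replicate 1, uninduced replicate 2 or IAA replicate 2 the count was 8, 7 and 8. The share of all peaks called lower in those fits was 39.2%, 46.5% and 57.8%. The largest fall was at 1 of 2 peaks of H2afx, whose product is phosphorylated at DNA breaks, with -0.92 ± 0.17. The other H2afx peak changed by -0.59 ± 0.16. The smallest change was at the linker histone H1f0, with -0.18 ± 0.18 and no call. One of 2 peaks of H3f3a (-0.28 ± 0.17) and the peak of H1fx (-0.62 ± 0.28) were not called either. No peak was near H1foo, an oocyte linker histone.

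The factors of histone gene transcription and mRNA end formation had 27 peaks at 18 of 18 genes, 24 of them called lower with a median of -0.59 (10 and 15 without uninduced replicates 1 and 2). Npat changed by -0.43 ± 0.16 (limma adjusted p = 0.0284) and Slbp by -0.51 ± 0.17 (limma adjusted p = 0.0174). The largest fall was at 1 of 3 peaks of Nfyc, a subunit of the CCAAT-binding factor NF-Y, with -0.90 ± 0.17. Its other peaks changed by -0.60 ± 0.16 and -0.35 ± 0.15. Peaks of Lsm11 (-0.34), Zfp473 (-0.46) and 1 of 4 peaks of Coil (-0.33, the smallest of the list) were not called. Histone chaperones had 26 peaks at 20 of 20 genes, 21 of them called lower with a median of -0.55 (7 and 13 without uninduced replicates 1 and 2). Tonsl had the largest fall, -0.72 ± 0.17, and Asf1b the smallest change, -0.29 ± 0.19. Both Asf1b peaks, Asf1a (-0.37), Cabin1 (-0.41) and 1 of 2 Nap1l1 peaks (-0.38) were not called. With all 6 libraries, the share called in each list, 81.3%, 88.9% and 80.8%, stands beside 68.2% of all peaks and 64.8% of the histone promoter peaks. Without uninduced replicate 1, the 10 of 27 factor peaks and 7 of 26 chaperone peaks stand beside 39.2% of all peaks. Without uninduced replicate 2, 15 of 27 and 13 of 26 stand beside 46.5%.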

How the data were processed

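H3K27ac ChIP-seq values of 6 libraries, 3 uninduced and 3 after IAA, were analysed, grouped by the sample labels. Reads had been aligned by the authors to GRCm38 (mm10) with Bowtie2 2.3.4.3 and stripped of duplicates with SAMtools, and MACS2 had been run on all uninduced IPs together to define the peaks. RPKM values made with DiffBind were deposited per library and per condition (versions of MACS2 and DiffBind not given in the sources used here). The labels name the antibody as ab4792 and the paper as ab4729. Each pooled column is the mean over its 3 libraries and was used for the threshold of 0.5. Input and spike-in were not used here. With peak length taken as end minus start, 100% of values were whole reads (tolerance 0.01). Same-condition libraries differed by a chi-square of 1.02 to 1.64 per degree of freedom, and none was merged.

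Log2(RPKM + 0.1), a scale that damps the change of peaks with low values, was fitted with limma 3.58.1 in R 4.3.3 (trend and robust), with BH adjustment over all 26457 peaks, and the script was tested on simulated data. RPKM values are not counts, so no count model was run. Genes came from GENCODE vM21 and repeated words from the GRCm38 sequence, taken every 16 bases on the main chromosomes with numba 0.67.0. Coordinates are as the authors' files give them. Named peaks are the highest, the largest and the smallest change of each class, all H1, Hist3 and Hist4 peaks, and all peaks not called; of the other lists, the members not called and the extremes, with Npat and Slbp added after their values were seen. The members and lists were chosen with earlier results of these data known, and the weighting of other promoters by RPKM or GC content and the restriction by OCT4 site were added after seeing the data. Alternatives covered the pseudocount, threshold, scaling, limma settings, replicate block, distance to the start, repeated words and each library left out.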

Additional observations from a re-analysis of the deposited data

How the results depend on the processing

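The count of 35 histone promoter peaks called lower was 35 or 36 with a pseudocount of 0.01 or 0.5 (64.8% and 66.7%, against 67.7% and 69.5% of all peaks). It was 35 with a threshold of 1 RPKM (67.3%, against 71.2%). It was 26 with no threshold (45.6%, against 49.8% of all peaks) and 29 without trend and robust (53.7%, against 66.0%). In the main fit, where 68.2% of all peaks were called lower, it was 37 with starts within 5 kb. It was 31 of 44 in peaks without an OCT4 site. It was 21 with the start inside the peak, 13 at an adjusted p under 0.01 and 7 with at most 10% repeated words, where fewer peaks were tested or the threshold was stricter. It was 0 when libraries were centred on the median peak (against 1.97% of all peaks) and 0 with quantile normalization (against 1.69%). There the difference between conditions in the library medians over the histone peaks was 0.11 and 0.14 in place of -0.45, and the variants, the transcription and mRNA end factors and the chaperones each had 0 peaks called lower after centring. Of the 35 called peaks, 23 had a positive change after centring and 25 after quantile normalization, among them (in that order) those named in the text: Hist3h2a (0.0211, 0.0549), Hist1h1b (0.21, 0.24), Hist1h2be with Hist1h1e (0.0364, 0.0331), Hist1h1c (0.0950, 0.11), Hist1h3c with Hist1h2bb (0.12, 0.0733), Hist2h2ab with Hist2h2ac and Hist2h2be (0.0132, 0.0448) and Hist4h4 (0.19, 0.0871). Leaving out 1 library gave 11 (without uninduced replicate 1) to 39 (without IAA replicate 1) histone peaks and 21 without uninduced replicate 2. These were 20.4%, 72.2% and 38.9% of the histone peaks, against 39.2%, 74.1% and 46.5% of all peaks. The same fits gave 7 to 13 peaks of variants, 10 to 25 of transcription and mRNA end factors and 7 to 24 of chaperones. The count of histone peaks called higher was 0 in all of these. The difference from other coding promoters, 0.09, ran from 0.03 (weighted by GC content) to 0.12 and stayed positive in all alternatives run.

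Across peaks, deviations of same-numbered libraries correlated at -0.01, -0.09 and -0.06. A shift common to a whole library does not enter this correlation, so pairing at the level of libraries was not tested. The share of reads in peaks was 7.12%, 6.91% and 6.63% in uninduced replicates 1, 2 and 3. After IAA it was 5.15%, 4.68% and 4.05%, in the same order. With the replicate block 39 histone peaks were called lower (72.2%, against 71.4% of all peaks). The 35 were among them, the 3 lists had 14, 25 and 22 lower peaks, and 0 histone peaks were higher. Depth limits the peaks near the floor, and repeated sequence limits which gene a read belongs to.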
